A study of Mus musculus with 17 samples.

Results

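Surface proteins by which mouse hematopoietic stem and progenitor cells (HSPC) are divided into subsets were followed at the transcript level, 9 in all: Ly6a, Kit, Slamf1, Procr, Esam, Cd34, Flt3, Cd48 and Cd27. They were chosen by name, as markers used in the field, with earlier results of these data known. They make up 9 of the 35321 gene symbols in the count table, and all 9 passed the filter on low counts. HSPC had been sorted from the bone marrow of wild-type C57BL/6J mice, and polyadenylated RNA was sequenced in 17 libraries. The mice had received an intraperitoneal injection of phosphate-buffered saline (PBS, 5 libraries titled day 0, harvest time not given), of lipopolysaccharide (LPS, a component of bacterial cell walls that triggers inflammation; 3 libraries at 24 h and 3 at 72 h), or of LPS with an antibody that blocks the receptor of the anti-inflammatory cytokine interleukin-10 (3 libraries at 24 h and 3 at 72 h). All groups were wild type, and the samples analysed here hold no group given the antibody alone. The series text gives 5 micrograms of LPS and 100 micrograms of antibody, the sample labels give the same figures in milligrams, and neither was assumed to be right. The labels state neither the sort gate nor whether each library came from a separate mouse, so the p-values measure the spread between these libraries.

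Blood is formed from rare long-lived stem cells that give rise to multipotent progenitors and then to cells committed to one lineage. In mouse bone marrow these stages are told apart by flow cytometry: the immature compartment lacks lineage markers and carries Sca-1, encoded by Ly6a, and KIT. Within it, stem cells are CD150 positive (Slamf1), EPCR positive (Procr) and ESAM positive and low in CD48, CD34 and FLT3, while CD34, FLT3, CD48 and CD27 mark the progenitor side. Sca-1 is also known to rise on bone marrow cells under interferon and during inflammation, which complicates its use as a gate. These are statements about proteins; the measurements below are transcripts of whole sorted populations, in which fewer cells of a type and less RNA per cell cannot be told apart.

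Libraries held 10516722 to 16006001 counts. The library of LPS at 24 h numbered 1 was set apart by its trimmed mean of M-values (TMM) scaling factor, 0.799 against 0.947 to 1.12 in the others, and by its 16431 genes detected against 16815 to 18778. On the second principal component of log2 values, the antibody libraries numbered 1 lay at 59.1 (24 h) and 62.5 (72 h), and those numbered 3 lay at -56.0 and -58.3. Levels are in CPM, counts scaled to a library total of 1000000 after TMM. A gene was called changed when its adjusted p from edgeR's quasi-likelihood test was below 0.05 among 14920 genes tested.

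All 9 genes were matched in the GENCODE annotation of GRCm38, the build named in the submitters' processing notes. Ly6a (ENSMUSG00000075602) lies at chr15:74994877-74998031 on the minus strand, Kit (ENSMUSG00000005672) at chr5:75574916-75656722 on the plus strand, and Procr (ENSMUSG00000027611) at chr2:155751117-155755471 on the plus strand. Slamf1 (ENSMUSG00000015316, chr1:171767127-171801184) and Cd48 (ENSMUSG00000015355, chr1:171682009-171705258) are neighbouring plus-strand genes of the SLAM family of immune cell receptors. Esam (ENSMUSG00000001946) lies at chr9:37528078-37538319 and Cd34 (ENSMUSG00000016494) at chr1:194938819-194961279, both on the plus strand. Flt3 (ENSMUSG00000042817, chr5:147330741-147400489) and Cd27 (ENSMUSG00000030336, chr6:125232622-125237010) are on the minus strand. Exons of Cd34 overlap the antisense gene Gm16897 and those of Cd27 overlap the microRNA gene Mir8113. The strandedness of the counting is not given in the sources used here. Reads from the stretch where exons of Cd34 and Gm16897 overlap therefore cannot be told apart, and the size of their share was not measured.

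Promoters of 3 genes are shown to set side by side 2 genes that were called lower after LPS at 24 h, Flt3 and Cd27, and 1 that was not called in any comparison, Cd48. Each is the 250 bases before the RefSeq transcript start on GRCm38.p6, read 5′ to 3′ on the gene's strand: chr5:147400490-147400739 (minus) for Flt3, chr6:125237028-125237277 (minus) for Cd27 and chr1:171681742-171681991 (plus) for Cd48. Capitals mark the only match, in these 3, to the motifs searched.
Flt3: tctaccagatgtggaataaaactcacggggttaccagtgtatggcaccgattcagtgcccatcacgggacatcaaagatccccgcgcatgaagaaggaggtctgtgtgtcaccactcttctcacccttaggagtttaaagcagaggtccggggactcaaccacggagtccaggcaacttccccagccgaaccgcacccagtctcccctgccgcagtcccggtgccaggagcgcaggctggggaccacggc
Cd27: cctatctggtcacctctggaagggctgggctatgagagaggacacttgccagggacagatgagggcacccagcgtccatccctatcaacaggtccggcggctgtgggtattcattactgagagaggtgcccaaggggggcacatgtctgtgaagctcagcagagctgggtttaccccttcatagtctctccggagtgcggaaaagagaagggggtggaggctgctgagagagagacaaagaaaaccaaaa
Cd48: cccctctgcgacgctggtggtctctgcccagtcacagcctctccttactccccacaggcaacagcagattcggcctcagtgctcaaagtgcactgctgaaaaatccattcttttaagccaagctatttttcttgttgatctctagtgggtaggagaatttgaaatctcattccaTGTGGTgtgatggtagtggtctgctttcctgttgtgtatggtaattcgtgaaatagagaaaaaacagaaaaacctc
The table of promoters held 7 of the 9 genes, in 8 windows; Ly6a and Esam were not matched. Both strands were searched for 6 motifs of factors active in blood cells. The interferon-response element, GAAA followed by NN and GAAA, was in 2.98% of 32851 promoters, the STAT motif TTCNNNGAA in 7.02%, the GATA motif AGATAA in 9.99% and the ETS motif CCGGAAGT in 2.88%; none of the 8 windows held any of these. The RUNX motif TGTGGT, in 14% of promoters, occurred in Cd48 at position -76 from the start, and the E-box CAGGTG, in 17.2%, occurred in Slamf1 at -162 on the opposite strand. These are matches of letters, and the data hold no measurement of factor binding.

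In PBS the 9 transcripts spanned a wide range. Per kilobase of exon, Cd48 was at 110.3 ± 16.1 CPM per kb (SD, n = 5), Cd34 at 94.8 ± 10.6, Flt3 at 72.1 ± 13.7, Cd27 at 62.5 ± 6.997, Ly6a at 51.2 ± 20.2 and Kit at 44.8 ± 6.82. The stem-side markers were scarce: Procr was at 5.32 ± 0.968 CPM per kb, Esam at 4.304 ± 1.19 and Slamf1 at 0.501 ± 0.103. Transcripts of the progenitor side were thus the abundant ones in the sorted population. Ly6a varied most between libraries of a group, with a biological coefficient of variation of 63.2%, higher than that of 95.3% of genes tested. Cd34 varied least of the 9, at 21.4%.

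**Figure D1:**
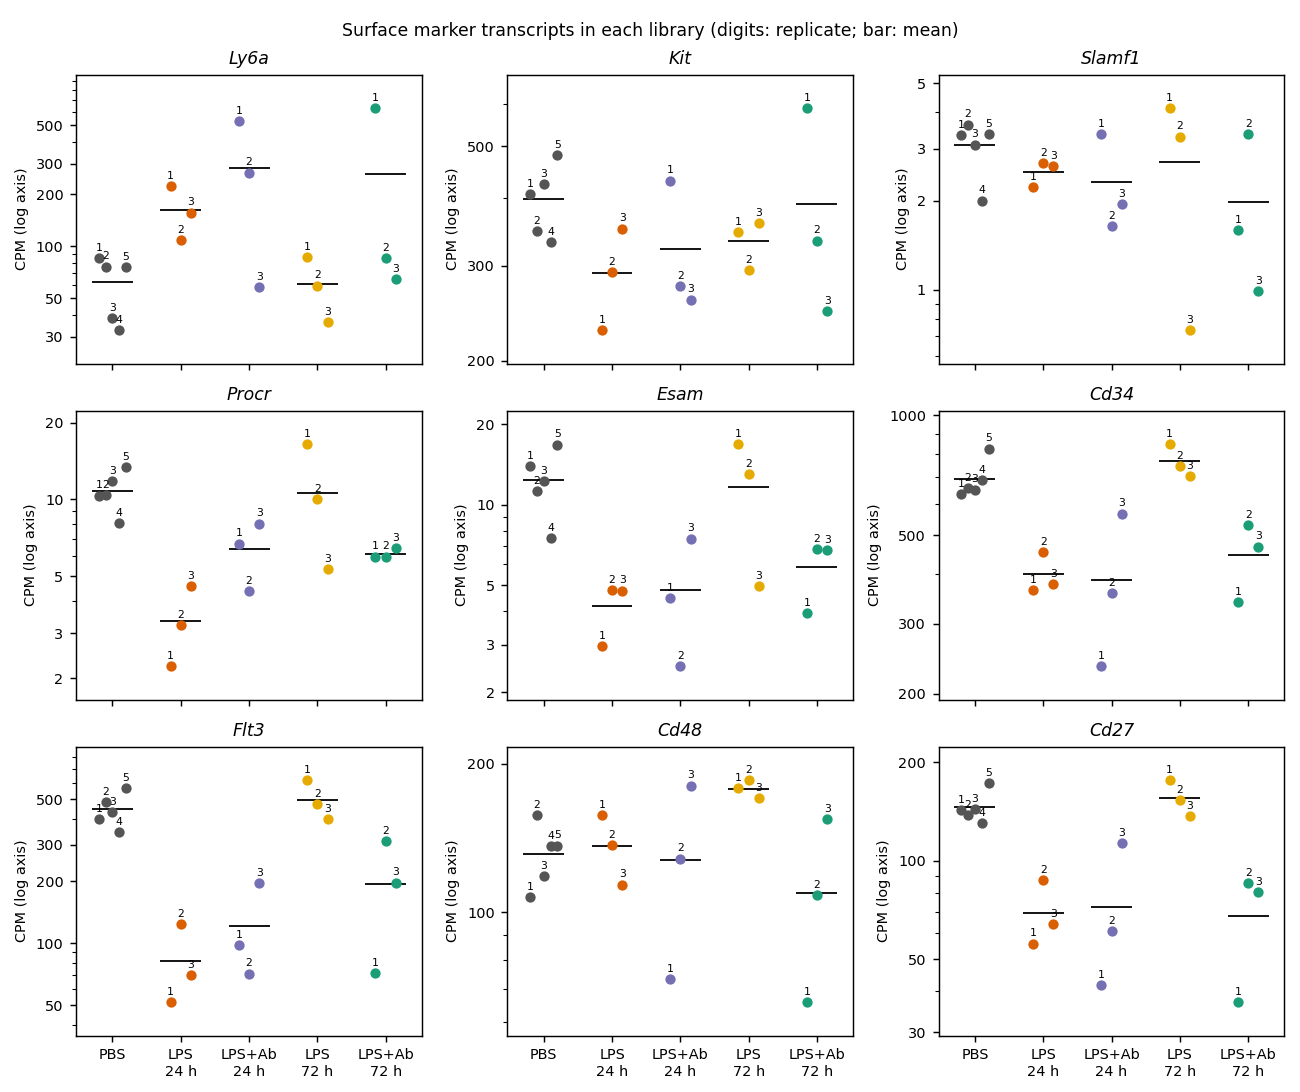
Level of each of the 9 transcripts in CPM (log axis) in each of the 17 libraries, by group; digits give the replicate number and bars the group mean. Flt3, Cd34 and Cd27 lie lower with LPS at 24 h than in any PBS library, and Ly6a spans 58.1 to 529.9 CPM among the antibody libraries at 24 h.

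With LPS at 24 h, 5 of the 9 markers were called lower than with PBS and none higher: Flt3, Procr, Esam, Cd27 and Cd34. Over all genes, 37.6% were called in this comparison, 19.1% higher and 18.5% lower. The median log2 change of the 9 was -0.79 and that of all genes -0.03. The 5 belong to both sides, with Procr and Esam counted among the stem markers and Flt3, Cd27 and Cd34 among the progenitor markers. Kit, Slamf1 and Cd48 were not called, and their libraries overlapped between the groups. Without LPS library 1 at 24 h, 2 were called, Procr and Flt3.

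Flt3 encodes the receptor tyrosine kinase for FLT3 ligand and marks multipotent and lymphoid-primed progenitors. It stood at 399, 484, 433, 344 and 567 CPM in the PBS libraries and at 51.5, 123 and 70.1 CPM with LPS at 24 h. All 3 LPS libraries were far below the lowest PBS library. The log2 change was -2.45 (SE 0.447, edgeR adjusted p = 0.00113), a 5.45-fold fall, and it held in 15 of 15 alternatives (changes from -2.87 to -2.19).

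Cd27, a receptor of the tumour necrosis factor receptor family carried by short-lived stem cells, progenitors and lymphocytes, followed the same course. PBS libraries held 143, 138, 143, 130 and 173 CPM, and LPS libraries at 24 h held 55.9, 87.4 and 64.0 CPM. The ranges did not overlap, and the log2 change was -1.07 (SE 0.297, edgeR adjusted p = 0.0112). Cd34, which encodes a sialomucin absent from the most primitive adult mouse stem cells and present on progenitors, was at 634, 658, 651, 686 and 825 CPM with PBS. With LPS it was at 364, 455 and 377 CPM, again without overlap. It fell by 0.79 on the log2 scale (SE 0.223, edgeR adjusted p = 0.0119).

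Procr encodes the endothelial protein C receptor, one of the most selective stem cell markers. Its levels were 10.4, 10.4, 11.8, 8.08 and 13.4 CPM with PBS against 2.23, 3.23 and 4.59 CPM with LPS at 24 h. Groups did not overlap, and the log2 change was -1.68 (SE 0.336, edgeR adjusted p = 0.00182), a 3.20-fold fall that held in 15 of 15 alternatives. Esam, an adhesion molecule of endothelial and stem cells, stood at 14.0, 11.3, 12.2, 7.52 and 16.8 CPM with PBS and at 2.97, 4.81 and 4.78 CPM with LPS. Here too every LPS library was below every PBS library. The log2 change was -1.55 (SE 0.412, edgeR adjusted p = 0.00894).

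Slamf1, the third stem-side marker, encodes CD150, a self-ligand receptor. Its PBS libraries held 3.33, 3.62, 3.10, 2.00 and 3.37 CPM and its LPS libraries at 24 h 2.23, 2.68 and 2.62 CPM. The LPS values lay within the PBS range, unlike those of Procr and Esam. Each library had only 10 to 54 Slamf1 counts, which limits what could be detected.

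Among the markers that gate the compartment as a whole, Ly6a lay higher, without a call. It was at 85.2, 76.3, 38.3, 32.6 and 76.0 CPM with PBS and at 223, 108 and 156 CPM with LPS at 24 h. Each LPS library exceeded each PBS library, but the spread was wide and the log2 change of 1.40 (SE 0.679) was not called (edgeR adjusted p = 0.117). The adjusted p ran from 0.00867 to 0.322 over the alternatives, and it passed the threshold in 1 of 15, the fit of these groups alone. Kit, the receptor of stem cell factor, was at 407, 347, 426, 332 and 482 CPM with PBS and at 228, 292 and 352 CPM with LPS. The lowest 2 LPS libraries were below PBS and the third was within its range.

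Cd48, a SLAM-family ligand carried by most progenitors and mature blood cells, was at 108, 157, 118, 136 and 136 CPM with PBS. With LPS at 24 h it held 157, 137 and 114 CPM, over nearly the same range. So within the progenitor side Flt3, Cd27 and Cd34 fell while Cd48 was not called.

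The ratio of Flt3 to Slamf1 counts within a library, which sets a progenitor against a stem marker, was 120 to 172 with PBS and 23.2 to 46.0 with LPS at 24 h. The ratio of Cd48 to Slamf1, another such pair, was 32.3 to 67.8 with PBS and 43.5 to 70.7 with LPS. The first pair thus separated the groups and the second overlapped. Cd34 to Procr gave 55.4 to 85.0 with PBS and 82.0 to 164 with LPS. The antibody libraries spread widely in the first ratio, from 29.0 to 100.5 at 24 h and from 44.7 to 198 at 72 h, with library 1 the lowest and library 3 the highest both times.

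**Figure D2:**
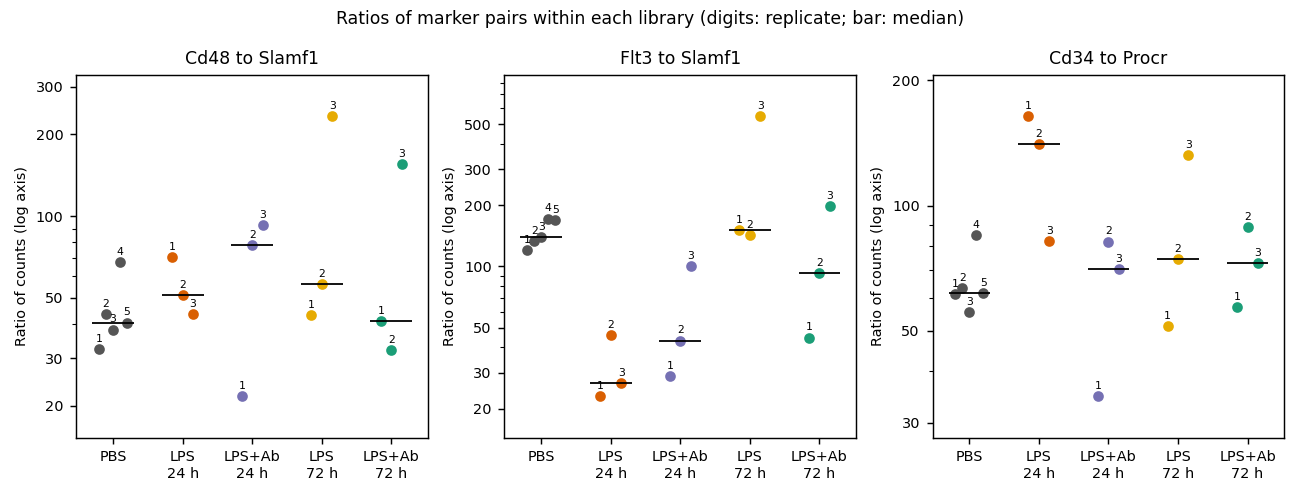
Ratio of counts of 3 marker pairs within each library (log axis), by group, with digits for the replicate number and bars at the group median. Flt3 to Slamf1 lies between 23.2 and 46.0 in the LPS libraries at 24 h against 120 to 172 in PBS, while Cd48 to Slamf1 overlaps between these groups.

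Genes listed as markers of other cell types were read in the same comparison, where 18.5% of all genes were called lower. Summed over 5 plasmacytoid dendritic cell genes, a cell type that carries FLT3, levels were 143 to 256 CPM with PBS. They were 54.1 to 80.7 CPM with LPS at 24 h, and 5 of 5 genes were called lower. Tcf4 was most of this sum, averaging 128 CPM with PBS and 59.2 CPM with LPS. Siglech averaged 26.1 and 1.64 CPM and Klk1 1.66 and 0.0309 CPM. The 8 genes listed as endothelial, a cell type that carries EPCR, ESAM and CD34, summed to 213 to 276 CPM with PBS. With LPS at 24 h they summed to 91.7 to 126 CPM. Of them, 6 of 8 were called lower. Cdh5 is also on the list of stem-side surface proteins given further below. Single genes averaged from 0.910 CPM (Flt4) through 1.94 CPM (Cdh5) and 49.1 CPM (Tie1) to 143 CPM (Pecam1) in PBS. Pecam1 and Tie1 were most of the sum, and Kdr averaged 1.67 CPM with PBS and 1.77 CPM with LPS. Macrophage genes summed to 452 to 3380 CPM with PBS and 154 to 177 CPM with LPS, with 12 of 12 called lower. B and plasma cell genes summed to 387 to 1353 and 70.2 to 90.9 CPM, with 4 of 8 lower. T and NK cell genes had overlapping sums, 108 to 269 and 103 to 262 CPM, with 3 of 8 lower. Megakaryocyte genes overlapped too, at 129 to 192 and 123 to 248 CPM, with 2 of 6 lower. Neutrophil genes summed to 37.83 to 1464 and 51.35 to 417.9 CPM, and 0 of the 7 tested were called. No gene of these lists was at 0 in every library of either group. Which cells of the sorted population these transcripts came from cannot be told here. The part of other cell types in the marker changes was not tested.

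At 72 h after LPS none of the 9 markers was called against PBS, and none had an unadjusted p below 0.05. Only 0.0201% of all genes, 3 genes, were called there by the edgeR test, with 1702 at an unadjusted p below 0.05; DESeq2 also called none of the 9. Flt3 was back at 619, 472 and 399 CPM, Cd27 at 176, 153 and 137 CPM and Cd34 at 848, 747 and 705 CPM, each range overlapping that of PBS. Cd48 was the 1 marker whose ranges did not overlap, at 178, 185 and 170 CPM against at most 157 CPM with PBS. Ly6a was at 86.4, 59.2 and 36.3 CPM and Kit at 347, 295 and 360 CPM.

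The stem-side transcripts were uneven among the 72 h LPS libraries. Procr was at 16.5, 10.1 and 5.34 CPM, Esam at 16.9, 13.02 and 4.97 CPM and Slamf1 at 4.12, 3.30 and 0.731 CPM. Library 3 was the lowest for all 3, and its Slamf1 value rests on 10 counts (exact Poisson 95% interval 0.351 to 1.35 CPM, counting error only). The same library had a Flt3 to Slamf1 ratio of 546 against 143 and 150 in the other two. Its erythroid genes summed to 5.85 CPM and its megakaryocyte genes to 42.1 CPM, the lowest of the group in both lists, and their part was not tested.

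The change over time was tested directly by comparing LPS at 72 h with LPS at 24 h. The 5 markers called lower at 24 h, Flt3, Procr, Esam, Cd27 and Cd34, were called higher at 72 h than at 24 h; of all genes 31.1% were called, 14.7% higher and 16.4% lower. The log2 changes were 2.60 for Flt3 (SE 0.475, edgeR adjusted p = 0.00109), 1.65 for Procr (SE 0.361, edgeR adjusted p = 0.00339) and 1.46 for Esam (SE 0.444, edgeR adjusted p = 0.0212). Cd27 rose by 1.17 (SE 0.324, edgeR adjusted p = 0.0131) and Cd34 by 0.94 (SE 0.244, edgeR adjusted p = 0.009). Libraries of the 5 called did not overlap between the times. Nor did those of Ly6a, lower at 72 h, and Cd48, higher at 72 h, neither of which was called. The share of all genes without overlap was not computed, here or in the other comparisons. This comparison shares its 24 h libraries with the comparison to PBS, so its changes are not independent of those above. Without LPS library 1 at 24 h, 3 were called (Procr, Cd34 and Flt3), and Esam was also not called without LPS library 1 or 2 at 72 h.

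**Figure D3:**
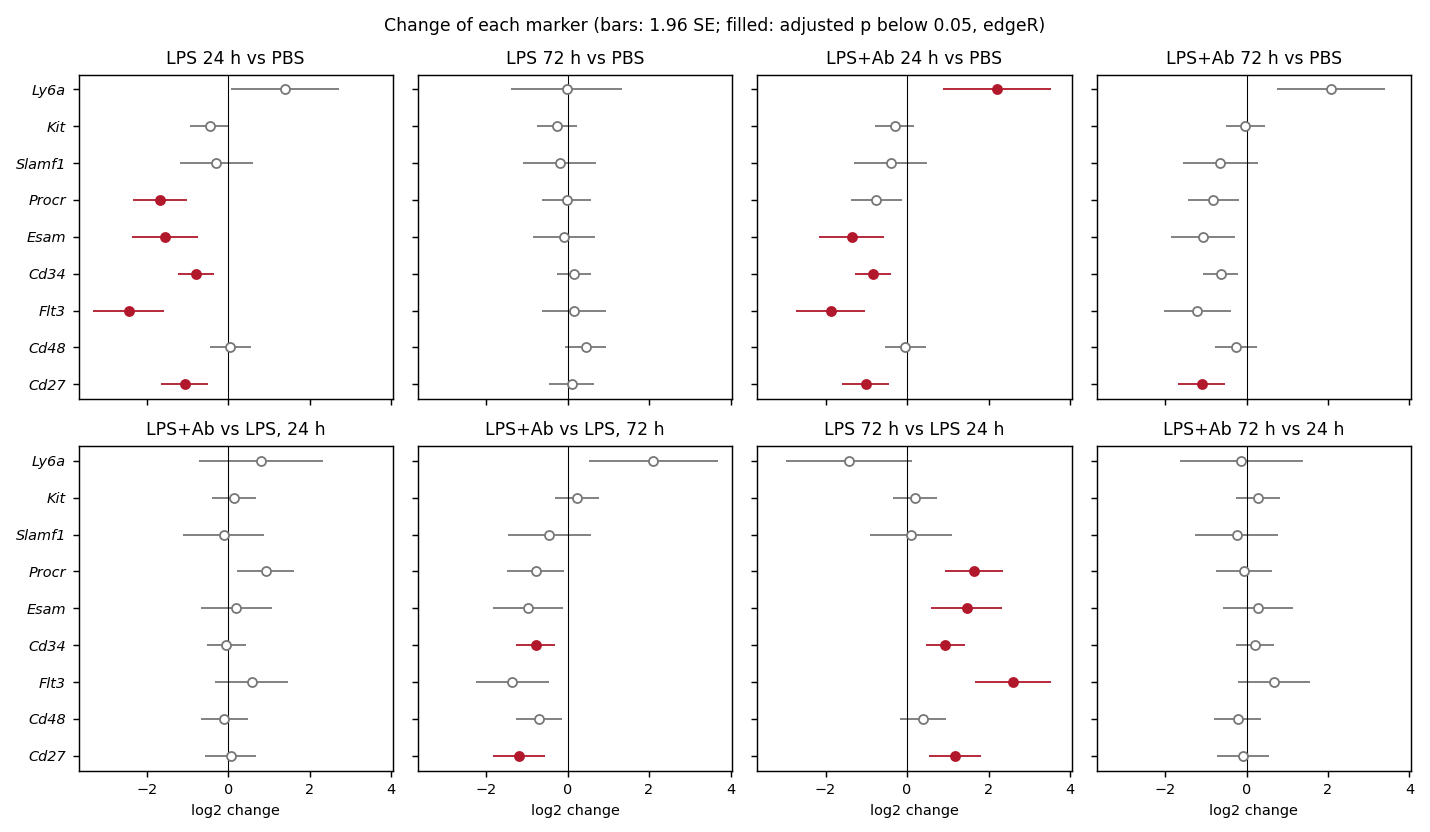
Log2 change of each marker in 8 of the 9 comparisons (the interaction is not drawn), with bars of 1.96 standard errors; filled points passed an adjusted p of 0.05. Flt3 shows the greatest fall at 24 h of LPS (-2.45), and no marker is filled for LPS at 72 h against PBS.

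With the receptor blocked, 5 of the 9 markers were called against PBS at 24 h, Ly6a higher and Esam, Cd34, Flt3 and Cd27 lower. Of all genes 24.2% were called, 11.7% higher and 12.5% lower. The median change of the 9 was -0.76 against -0.00103 for all genes. These calls moved with single libraries: 2 remained without PBS library 5 (Cd34 and Flt3), 1 without antibody library 1 (Flt3) and 0 without antibody library 2.

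Flt3 was at 97.5, 71.0 and 196 CPM with LPS and antibody at 24 h, below all PBS libraries. Its log2 change against PBS was -1.87 (SE 0.434, edgeR adjusted p = 0.00927). Cd34 held 234, 358 and 566 CPM and Cd27 41.7, 60.9 and 114 CPM, each with library 1 lowest and library 3 highest. Cd34 fell by 0.84 (SE 0.223, edgeR adjusted p = 0.0166) and Cd27 by 1.01 (SE 0.297, edgeR adjusted p = 0.0246).

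On the stem side, Esam was at 4.48, 2.50 and 7.48 CPM and fell by 1.36 on the log2 scale (SE 0.408, edgeR adjusted p = 0.0273). The highest of these lay just under the lowest PBS library. Procr was at 6.72, 4.37 and 8.05 CPM, all below the lowest PBS library, and its change of -0.76 (SE 0.318) was not called (edgeR adjusted p = 0.0923). Slamf1 was at 3.36, 1.64 and 1.95 CPM, overlapping PBS.

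Ly6a rose by 2.21 on the log2 scale (SE 0.681, edgeR adjusted p = 0.0298), yet its libraries held 530, 266 and 58.1 CPM, so that the third was inside the PBS range. It passed the threshold in 8 of 16 alternatives, with a change between 1.40 and 2.73 and an adjusted p between 0.0134 and 0.171. The lowest change, 1.40, was that without antibody library 1, which ended the call. Kit was at 432, 275 and 260 CPM and Cd48 at 73.2, 128 and 181 CPM. In library 1 Ly6a and Kit were the highest of the group and Cd48, Cd34 and Cd27 the lowest; in library 3 this order was reversed.

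At 72 h with antibody, 1 marker was called against PBS, Cd27, where 13.2% of all genes were called (6.81% higher and 6.43% lower). Cd27 was at 37.0, 85.7 and 80.4 CPM, below all PBS libraries, and fell by 1.10 on the log2 scale (SE 0.298, edgeR adjusted p = 0.0278). Leaving out PBS library 5 or antibody library 1 left no marker called, and leaving out antibody library 2 gave 3 (Ly6a, Flt3 and Cd27). Without antibody library 3 the called marker was Ly6a instead. DESeq2's Wald test called 5 of the 9 here, Ly6a higher and Esam, Cd34, Flt3 and Cd27 lower.

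Cd34 at 340, 530 and 468 CPM, Flt3 at 71.4, 312 and 197 CPM, Procr at 5.97, 5.98 and 6.44 CPM and Esam at 3.95, 6.82 and 6.79 CPM were also below every PBS library at 72 h with antibody. None of these 4 was called, and the share of all genes that lay below every PBS library was not computed. Their log2 changes against PBS were -0.63 for Cd34 (SE 0.221, edgeR adjusted p = 0.0668), -1.21 for Flt3 (SE 0.419, edgeR adjusted p = 0.0653), -0.82 for Procr (SE 0.320, edgeR adjusted p = 0.0938) and -1.07 for Esam (SE 0.402, edgeR adjusted p = 0.0816). Without antibody library 1 that of Flt3 was -0.78. Procr was the most even of the markers in this group, at 6.13 ± 0.266 CPM (SD, n = 3).

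Ly6a was carried by 1 library at 72 h with antibody: 632 CPM in library 1 against 84.9 and 64.7 CPM in the other two, both within the PBS range. Its log2 change of 2.08 (SE 0.680, edgeR adjusted p = 0.0535) fell to 0.31 without that library, and the adjusted p ran from 0.0282 to 0.762 over the alternatives. Kit was at 589, 334 and 247 CPM, Slamf1 at 1.60, 3.36 and 0.990 CPM and Cd48 at 65.8, 108 and 154 CPM, all overlapping PBS. Library 1 was again highest for Ly6a and Kit and lowest for Cd48, Cd34, Cd27 and Flt3.

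The levels of Ly6a went with those of 16 interferon-response genes listed beside it. These summed to 871 to 1357 CPM with PBS and 1442 to 2463 CPM with LPS at 24 h. In the antibody libraries they summed to 4987, 1956 and 1047 CPM at 24 h and to 6529, 1225 and 1035 CPM at 72 h, in the same order as Ly6a within both groups. With LPS at 24 h 3 of the 16 were called higher (Bst2, Psmb8 and Ifitm3), 3 with antibody at 24 h (Gbp3, Psmb8 and Ifitm3), 4 with antibody at 72 h (Gbp2, Gbp3, Cxcl10 and Ifitm3) and 0 with LPS at 72 h. Of all genes, 19.1%, 11.7%, 6.81% and 0.0201% were called higher in these comparisons, so the first count is near the background. Over the 17 libraries, the genes of at least median level whose log2 CPM was most like that of Ly6a were Parp12 (Pearson r = 0.943) and the interferon-induced gene Ifitm3 (r = 0.941), among 7454 candidates; without the antibody libraries numbered 1 the values were 0.876 and 0.912 over 15 libraries. The libraries of 5 groups share in these values.

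Ly6a has close relatives in the Ly6 family, and how reads that match several genes were counted is not given in the sources used here. Of 5 relatives (Ly6c1, Ly6c2, Ly6d, Ly6e and Ly6k), 0 were called higher in any comparison to PBS. Ly6d, a marker of lymphoid progenitors, was called lower with LPS at 24 h (log2 change -3.50, SE 0.833, edgeR adjusted p = 0.00485). Ly6e, the most abundant, was at 907 to 1292 CPM with PBS and 1131 to 2177 CPM with LPS at 24 h, without a call.

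Kit is also carried by erythroid progenitors, so 10 erythroid genes were set beside it. Their sums were 201 to 379 CPM with PBS, 328 to 749 CPM with LPS at 24 h and 5.85 to 106 CPM with LPS at 72 h. The listed genes did not share a direction at 24 h: Car1 averaged 115 CPM with PBS and 376 CPM with LPS, and Ermap 34.6 and 94.95 CPM, whereas the globin gene Hba-a1 averaged 38.9 and 11.7 CPM and Hbb-bs 44.1 and 11.4 CPM. In the test, 0 of the 10 were called higher and 1, Hbb-bt, lower, with a median log2 change of -0.13. In the antibody libraries the sums were 1713, 391 and 21.2 CPM at 24 h and 1034, 156 and 7.92 CPM at 72 h, in the order of Kit within these antibody groups. The order did not hold within PBS, within LPS at 24 h or within LPS at 72 h, where library 3 had the highest Kit (360 CPM) and the lowest erythroid sum (5.85 CPM). Their part in the levels of Ly6a and Kit was not tested.

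**Figure D4:**
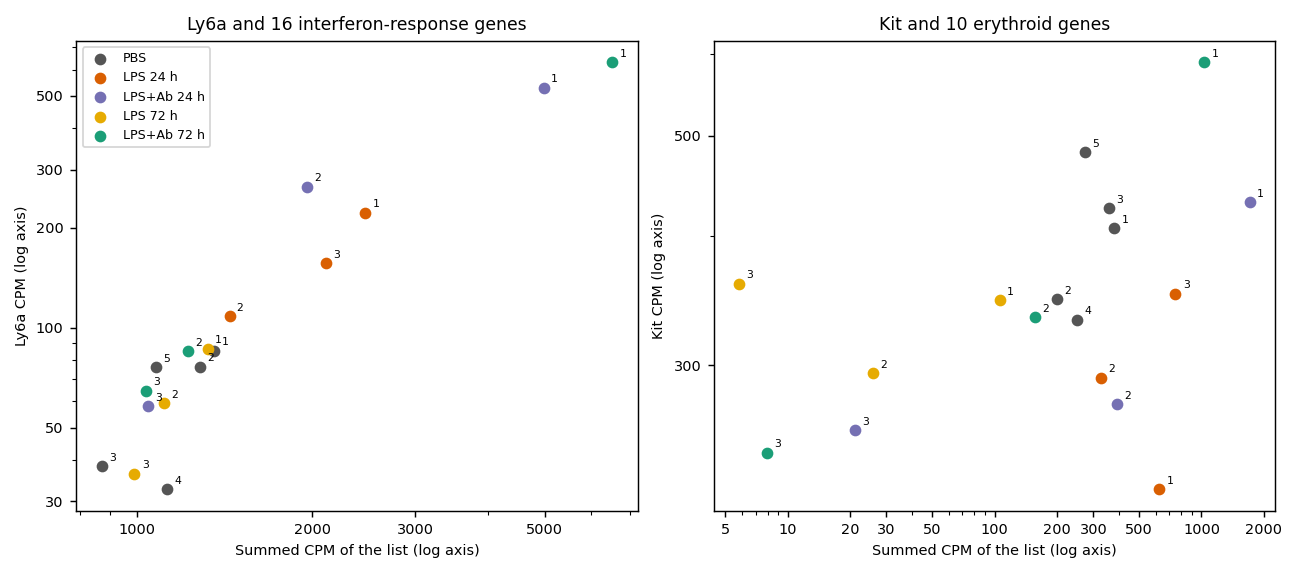
Left, Ly6a against the summed level of 16 interferon-response genes; right, Kit against the summed level of 10 erythroid genes, both in CPM on log axes, 1 point per library with its replicate number. The antibody libraries numbered 1 are at the top of the left panel, with Ly6a at 529.9 and 632.3 CPM; in the right panel that of 72 h has the highest Kit, 589.2 CPM, and that of 24 h, at 431.6 CPM, lies below PBS library 5.

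The antibody was compared with LPS alone at each time. At 24 h none of the 9 was called, and none of the 14920 genes was (0%) by edgeR's quasi-likelihood test, with 273 at an unadjusted p below 0.05 and 1 called by DESeq2. All 9 overlapped between the groups. Procr had the only change of at least 1.96 standard errors, 0.92 (SE 0.359, edgeR adjusted p = 1).

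At 72 h the antibody libraries were lower than those with LPS alone for Cd34 and Cd27, the 2 markers called of 9; 15.1% of all genes were called, 8.64% higher and 6.48% lower. Cd27 fell by 1.20 on the log2 scale (SE 0.324, edgeR adjusted p = 0.0224) and Cd34 by 0.78 (SE 0.243, edgeR adjusted p = 0.042), both without overlap. Flt3 and Cd48 did not overlap either, with changes of -1.36 (SE 0.456, edgeR adjusted p = 0.0553) and -0.70 (SE 0.292, edgeR adjusted p = 0.11) that were not called. The median change of the 9 was -0.78 and that of all genes 0.01.

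For the other markers the groups at 72 h overlapped. Procr changed by -0.79 (SE 0.351, edgeR adjusted p = 0.132), Esam by -0.98 (SE 0.438, edgeR adjusted p = 0.133) and Ly6a by 2.11 (SE 0.807, edgeR adjusted p = 0.0862), without a call. Without antibody library 1 the change of Ly6a was 0.35 and that of Cd48 -0.40, and without LPS library 1 the change of Procr was -0.33 and that of Esam -0.61. With LPS library 1, LPS library 2 or antibody library 1 left out in turn, 0 markers were called at 72 h. Leaving out LPS library 3, antibody library 2 or antibody library 3 gave 3 each. Cd27 was called in 3 of 6 fits with a library left out and Cd34 in 1 of 6 (without antibody library 2).

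Whether the antibody effect differed between the times was tested as an interaction, in which 6.35% of all genes (4.03% higher, 2.32% lower) and 0 of the 9 markers were called by edgeR. The unadjusted p was below 0.05 for 3616 of the 14920 genes and for 4 of the 9 markers, all 4 more negative at 72 h. DESeq2 called 2 markers, Procr and Flt3, and its count over all genes is given in the last paragraph. The differences of log2 changes were -1.71 for Procr (SE 0.502, edgeR adjusted p = 0.0542), -1.93 for Flt3 (SE 0.641, edgeR adjusted p = 0.0796), -1.26 for Cd27 (SE 0.455, edgeR adjusted p = 0.105) and -0.74 for Cd34 (SE 0.343, edgeR adjusted p = 0.202). Leaving out LPS library 2 at 24 h or antibody library 2 at 72 h gave 1 call (Flt3), leaving out LPS library 3 at 72 h gave 1 (Procr), and leaving out antibody library 2 at 24 h gave both. Without antibody library 3 at 24 h the difference was -0.79 for Cd27 and -0.37 for Cd34. Between the antibody groups at 72 h and 24 h, 0 of the 9 and 0% of all genes were called by edgeR, no marker had an unadjusted p below 0.05 (635 genes did), and DESeq2 called 1 gene, not a marker.

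The order of the 5 groups by mean level differed between markers. For Flt3, Cd34 and Cd27, LPS at 72 h and PBS came first and overlapped each other, and the 3 remaining groups followed below a gap, each overlapping its neighbour. Procr and Esam had PBS first and LPS at 72 h next, with no gap below them because of the low LPS library 3 at 72 h. For Procr alone of these 5, LPS at 24 h came last below a gap, at 3.35 ± 1.19 CPM against 6.13 ± 0.266 CPM with antibody at 72 h (SD, n = 3 each), though it overlapped antibody at 24 h. Ly6a had a gap between LPS at 24 h and PBS, and Cd48 had one below LPS at 72 h, its highest group. Kit and Slamf1 showed no gap between any neighbours.

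The genes most like each marker over the 17 libraries were named by the same rule as for Ly6a, as a description. Flt3 was followed most closely by Dntt, the terminal transferase of lymphoid progenitors (r = 0.980), and Appl2 (0.979), and Dntt went from 783 CPM with PBS to 49.9 CPM with LPS at 24 h. Esam was closest to Meis1, a transcription factor of stem cells (0.940), and Adgrg1, an adhesion receptor of stem cells (0.937). Septin6 came second for both Cd34 and Cd27 (0.975 each), after Gm16897 (0.977) and Zfp422 (0.977). Gm16897 is the antisense gene that overlaps exons of Cd34, and reads from the overlap cannot be told apart here. The remaining leaders were Zfp36 for Procr (0.915), Lgals1 for Cd48 (0.915), Tbcel for Kit (0.937) and Sox12 for Slamf1 (0.806). These libraries share group differences and composition, so the values carry no p.

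Other surface proteins used to divide HSPC were taken as a list of 13 from the stem side and 12 from the progenitor side. With LPS at 24 h, 4 of the 13 were called lower and 0 higher, where 18.5% of all genes were called lower and 19.1% higher. Among them were Neo1, the receptor neogenin (log2 change -2.27, SE 0.446, edgeR adjusted p = 0.00165), Tek, the angiopoietin receptor (-0.98, SE 0.305, edgeR adjusted p = 0.0201), and Cd82 (-0.80, SE 0.248, edgeR adjusted p = 0.0193). Neo1 was scarce, averaging 0.974 CPM with PBS and 0.194 CPM with LPS at 24 h. The median of the 13 was -0.80. With antibody at 24 h 4 were lower, among them Vwf, Tek and Neo1 (12.5% of all genes were), and at 72 h 0 were called against PBS with or without antibody.

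Of the 12 on the progenitor side, 4 were called lower and 2 higher with LPS at 24 h, against 18.5% and 19.1% of all genes. Il7r, the interleukin-7 receptor of lymphoid progenitors, fell by 3.20 (SE 0.477, edgeR adjusted p = 0.000487), Cd93 by 1.25 (SE 0.271, edgeR adjusted p = 0.00291), Csf1r, the receptor of macrophage colony-stimulating factor, by 1.03 (SE 0.276, edgeR adjusted p = 0.00957) and Ly9 by 0.51 (SE 0.191, edgeR adjusted p = 0.0483). Tfrc, the transferrin receptor, rose by 1.49 (SE 0.400, edgeR adjusted p = 0.00942) and Fcgr2b, an Fc receptor, by 1.03 (SE 0.313, edgeR adjusted p = 0.0174). Against LPS alone at 72 h, the antibody group had Csf1r, Cd93 and Cd244a among the genes called lower, and Tfrc higher.

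Among genes of proteins commonly used to exclude mature cells in a sort, Ptprc, which blood cells carry widely, was at 299 CPM in PBS and Itgam, a myeloid integrin chain, at 65.2 CPM, while the other genes of the list averaged from 0.960 CPM (Ly6g) to 19.3 CPM (Cd4). The 8 genes of this list summed to 343 to 478 CPM with PBS and 195 to 268 CPM with LPS at 24 h. There 5 of the 7 tested were called lower, against 18.5% of all genes. Ptprc and Itgam were most of the sum, averaging 199.6 and 27.17 CPM with LPS at 24 h. The antibodies used in the sort are not given, so this is a check of the labelled cell type only. Of the HSPC genes, Kit and Cd34 were at percentiles 97.5 and 98.5 of mean level among genes tested. The stem-side genes were far lower, with Slamf1 at percentile 19, Procr at 30.6 and Esam at 30.8. Flt3, Cd48, Ly6a and Cd27 lay between, at 95, 89.7, 85.1 and 84.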

How the data were processed

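RNA abundance was measured in 17 libraries in 5 groups, taken from the sample titles. The authors deposited 1 table of raw counts per gene symbol, whole numbers that are not normalized. The submitters' processing notes name GRCm38, HISAT2 2.2.0, Subread, featureCounts 2.1.1, R 4.3.2 and DESeq2, without their role or order; the annotation, the strandedness and the treatment of multi-mapping reads are not given in the sources used here, so counts of overlapping genes and of gene families are uncertain. All columns were matched to labels (0 unmatched).

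Counts were fitted in R 4.3.3 with edgeR 4.0.16 (filterByExpr, minimum count 10 and minimum total 15; TMM factors; glmQLFit and glmQLFTest in 1 fit of all libraries with a mean per group), which left 14920 genes. There were 9 comparisons, each adjusted by the Benjamini-Hochberg method over all genes tested and called below 0.05. Standard errors are the absolute log2 change divided by the square root of F. All 9 markers are named in every comparison; log2 changes are printed only where they are at least 1.96 standard errors from 0 (35 of 81), and the others are given as levels. Beside each marker the text names the genes, up to 2, with the highest Pearson r of log2 CPM (prior count 2), and for other lists the called genes. The markers and lists were chosen with earlier results of these data known. Of the listed genes, Igkc and Ighm were not in the table. Some listed genes are not reported here by name. Positions and exon lengths come from GENCODE vM21 and promoters from RefSeq, both on GRCm38. The fitting script was tested on simulated data.

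Depth was 10516722 to 16006001 counts per library; intervals of single counts are exact Poisson at 95% and cover counting error only. Alternatives were DESeq2 size factors, upper-quartile factors, plain library totals, no filter, DESeq2 1.42.0's Wald test, the replicate number as a block, a fit of the compared groups only, each library left out, both 24 h libraries numbered 1 left out (their recorded names are in another style; whether this is a batch is not stated) and, chosen after seeing the data, both antibody libraries numbered 1 left out. Replicate numbers come from the titles, which do not say what they share. Deviations of same-numbered libraries correlated at 0.191, 0.188 and 0.158 for LPS at 24 h against PBS, the only comparison with every pair above 0.1, and the block left the same 5 markers called there.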

Additional observations from a re-analysis of the deposited data

Results flagged for a closer look

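Among 25 groups of 5 PBS values examined for a single library far from the rest, 4 had one, where chance gives about 1 in 20. Cd34 stood at 824.7 CPM in PBS library 5, against 633.9 to 686.3 CPM in the other PBS libraries. The ratio of Cd34 to Procr counts was 84.95 in PBS library 4, against 55.35 to 63.28 in the others. PBS library 2 held both the highest macrophage sum, 3380 CPM against 452.4 to 1277 CPM in the other PBS libraries, and the highest neutrophil sum, 1464 CPM against 37.83 to 246.8 CPM; its B and plasma cell sum, 1353 CPM, was also the highest of the PBS group.

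The LPS effect differed between 72 h and 24 h for 5 of the 9 markers, out of 27 differences of effects tested. Both effects share the PBS libraries, so the test is that of LPS at 72 h against LPS at 24 h. Of all genes, 31.1% were called in that test, 14.7% higher and 16.4% lower. The differences in log2 change (72 h minus 24 h) were 1.65 for Procr, 1.46 for Esam, 0.94 for Cd34, 2.60 for Flt3 and 1.17 for Cd27, each with LPS at 24 h below PBS in 3 of 3 libraries.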

How the results depend on the processing

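Of 81 marker changes, 18 were called and 5 were called under every alternative run; 29 changed sign in at least 1 alternative, none of them called there or in the reported fit, and none of the 35 printed changes did so. Markers called ranged, with single libraries left out, from 2 to 5 for LPS at 24 h against PBS, 0 to 5 and 0 to 3 for antibody at 24 h and 72 h against PBS, 0 to 3 for the antibody at 72 h, 3 to 5 for LPS at 72 h against 24 h, and 0 to 2 for the interaction; they stayed at 0 in the other 3 comparisons. With antibody at 24 h the replicate block left 1 of 5, as did leaving out both 24 h libraries numbered 1; without both antibody libraries numbered 1, 5 were called, Kit in place of Esam. For antibody at 72 h against PBS, upper-quartile factors gave 2, DESeq2's Wald test 5, the replicate block 0 and the compared groups alone 4, against 1. For the antibody at 72 h, no filter gave 1, DESeq2 4, the groups alone 0 and leaving out both antibody libraries numbered 1 gave 1, against 2; for the interaction DESeq2 gave 2. The cause of these changes was not tested.

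Outside LPS at 24 h against PBS, correlations of same-numbered libraries ran from -0.365 to 0.723, with at least 1 pair under 0.1 in each comparison. The largest were between the antibody groups at 72 h and 24 h. They were 0.723 for the libraries numbered 1 and 0.697 for those numbered 3, against -0.0217 for those numbered 2. Differently numbered libraries were not compared, so pairing by number was not tested. The block changed no other count of markers. Over all genes it lowered the calls from 3605 to 1721 and from 1975 to 374 for antibody at 24 h and 72 h against PBS, from 3 to 0 for LPS at 72 h and from 947 to 333 for the interaction. DESeq2 called 171 genes for LPS at 72 h and 1702 for the interaction, and the groups alone gave 99 and 286, and 1123 of 2256 for the antibody at 72 h. The interaction fell to 617 with no filter. Leaving out both 24 h libraries numbered 1 gave 127 for the interaction and 3678 of 5616 for LPS at 24 h; leaving out both antibody libraries numbered 1 gave 336 for the interaction and 1164 of 1975 for antibody at 72 h. Upper-quartile factors moved the median of all genes by -0.13 for LPS at 24 h against PBS, and the share of calls that were higher from 50.7% to 36.8%; for antibody the shares went from 48.3% to 32.5% (24 h), 51.4% to 32.8% (72 h) and 57.1% to 42.4% (against LPS at 72 h), from 47.2% to 59.2% for LPS at 72 h against 24 h and from 63.5% to 49.7% for the interaction.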
